A study of Homo sapiens with 18 samples.

Results

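The interferon regulatory factors (IRFs) are a family of transcription factors that share a winged-helix DNA-binding domain. The family was followed through 8 genes, IRF1, IRF2, IRF3, IRF4, IRF5, IRF7, IRF8 and IRF9, of 18417 genes measured. The genes were taken by symbol from probe sets assigned to a single gene. Each of the 8 had 1 such probe set, so no choice between probe sets was made. They lie on chromosomes 5, 4, 19, 6, 7, 11, 16 and 14 in that order.

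The study asked how far the B-cell factor PAX5, alone or together with drugs that open chromatin, returns Hodgkin lymphoma cells to a B-cell pattern, and total RNA was hybridised to 18 Affymetrix gene arrays in 6 groups of 3. Raji and Namalwa are Burkitt lymphoma lines, mature malignant B cells, and were left untreated. L428 is a classical Hodgkin lymphoma line, derived from B cells whose B-cell programme is largely silent, and L428-PAX5 is a line made from it in which mifepristone switches on PAX5. Treatment of the group L428-PAX5+MAT lasted 5 days and began with 0.25 nM mifepristone, 2 days ahead of 5-aza-dC. The 5-aza-dC (decitabine, which blocks DNA methyltransferases) was given at 3 µM for 3 days, with 640 nM TSA (trichostatin A, which blocks histone deacetylases) over the final 24 h. L428-PAX5+M received mifepristone alone for 5 days. L428+MAT and L428+M were unmodified L428 cells given the same agents as L428-PAX5+MAT and L428-PAX5+M. All 4 Hodgkin-derived groups therefore carried mifepristone, and both Burkitt groups did not, so that line and mifepristone cannot be told apart in comparisons with the Burkitt lines. L428-PAX5 was grown with an added 25 mM HEPES buffer, and uninduced L428-PAX5 was not analysed here, so PAX5, the derived line and the medium cannot be told apart. The drugs were given together, and the share of each was not tested.

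IRFs relay the sensing of infection and of interferon to the genome. IRF3, IRF5 and IRF7 are held inactive in the cytoplasm until Toll-like receptors, RNA sensors or DNA sensors lead to their phosphorylation, after which they switch on interferon genes. IRF9 is the DNA-binding subunit of ISGF3, the complex that carries the type I interferon signal to genes such as MX1 and OAS2. IRF1 is itself induced by interferon-gamma and activates antigen presentation genes, while IRF2 binds the same sites and mostly restrains it. IRF4 and IRF8 are the lymphoid members: they bind DNA weakly alone and pair with PU.1, SPIB or BATF factors. In B cells IRF8 is high in the germinal centre, and IRF4 is needed for plasma cell formation and is a known feature of Hodgkin cells.

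Reference promoters hold a STAT-type element ahead of IRF1 and IRF9, among the 5 members that had a promoter entry. RefSeq promoter windows (GRCh38.p14, from 250 bases before to 50 bases after a gene's start) matched 5 of the 8 members, with 1 start for IRF1, IRF4 and IRF9, 2 for IRF8 and 4 for IRF5. IRF2, IRF3 and IRF7 had no entry. Both strands were searched for the GAS element TTCNNNGAA that STAT dimers bind, the ISRE that ISGF3 and IRFs bind, written as 2 copies of GAAA set 2 bases apart, and the EICE that PU.1 binds with IRF4 or IRF8, written as GGAA and GAAA set 2 bases apart. The IRF1 window (chr5:132490724-132491023, minus strand) and the IRF9 window (chr14:24161015-24161314, plus strand) each held a GAS element, in capitals below, 124 and 63 bases before the start. They are shown as the member windows that held this element, and its part in the changes of these genes was not tested.
IRF1 promoter: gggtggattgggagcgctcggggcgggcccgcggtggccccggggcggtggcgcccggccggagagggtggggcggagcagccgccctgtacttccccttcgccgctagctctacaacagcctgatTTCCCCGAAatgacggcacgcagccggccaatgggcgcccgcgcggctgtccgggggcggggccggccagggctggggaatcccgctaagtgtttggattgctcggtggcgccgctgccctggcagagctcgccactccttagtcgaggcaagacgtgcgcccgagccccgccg
IRF9 promoter: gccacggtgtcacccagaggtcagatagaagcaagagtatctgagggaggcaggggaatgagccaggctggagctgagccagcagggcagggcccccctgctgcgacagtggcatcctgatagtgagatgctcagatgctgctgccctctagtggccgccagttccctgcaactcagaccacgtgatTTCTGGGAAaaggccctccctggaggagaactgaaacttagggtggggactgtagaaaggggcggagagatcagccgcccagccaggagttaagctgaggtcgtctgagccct
Of all 35116 RefSeq windows of this length, 7.66% held the GAS letters, so a match of this kind is common and is only a description. IRF1, IRF8 and IRF9 passed as higher with the drugs in L428, and neither window of IRF8 held the GAS letters. No member window held the ISRE letters, which 3.57% of all windows held. The EICE letters, held by 2.82% of windows, were found at the third IRF5 start (window chr7:128940420-128940719, plus strand), read here on the gene's own strand, so that they appear as their reverse complement.
IRF5 element: gtctagccacTTTCGTTTCCcctggggccg
The windows differed widely in CG dinucleotides, the sites that DNA methyltransferases mark. The IRF1 window held 36 of them, the IRF4 window 32 and the IRF9 window 7, against a median of 14 over all windows. The IRF8 windows held 3 and 9, and the IRF5 windows 25, 34, 8 and 5. DNA methylation was not measured in these samples.

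Array medians lay between 6.52 and 6.7, and arrays of 1 group correlated between 0.9645 and 0.9945 over all probe sets. The labels do not say whether the 3 samples of a group came from separate cultures. The p-values thus rest on the spread among the 3 arrays of a group, pooled over all 6 groups for each gene. Part or all of that spread may be technical. A wide spread of a gene in 1 group also enters its comparisons between other groups. PAX5 averaged 12.79 in L428-PAX5+MAT and 12.73 in L428-PAX5+M, 7.17 in L428+MAT and 7.49 in L428+M, and 10.89 in Raji and 11.08 in Namalwa (log2 expression). On the L428+M arrays PAX5 read 8.64, 7.14 and 6.70, so replicate 1 stood apart from the other two. Without that array L428-PAX5+M against L428+M gave log2 changes of 1.72 for IRF1, 1.23 for IRF8, -0.70 for IRF5 and -1.22 for IRF9, and L428+MAT against L428+M gave 0.74 for IRF1, 1.33 for IRF8 and 1.0 for IRF9, and of these calls only that of IRF5 was lost. The interaction without it was -1.67 for IRF1, -1.39 for IRF2, -1.75 for IRF5 and -0.90 for IRF9, all still passing. B-cell markers separated the lines, with CD79A, a chain of the B-cell receptor, at 12.30 in Raji and 11.93 in Namalwa against 6.13 in L428+M. The T-cell marker CD3D averaged 5.14 to 5.62 and the myeloid marker LYZ 3.86 to 4.53 in every group, near the low end of the scale.

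IRF4 varied most between groups and IRF3 least. The 6 group means of IRF4 spanned 5.34 on the log2 scale, those of IRF5 3.22, IRF9 2.86, IRF2 2.45, IRF8 2.44, IRF1 1.95 and IRF7 1.18. IRF3 spanned 0.44, below the median span of 0.80 over all genes. Each gene is read by its own probe set, so levels are set against each other only within a gene.

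**Figure D1:**
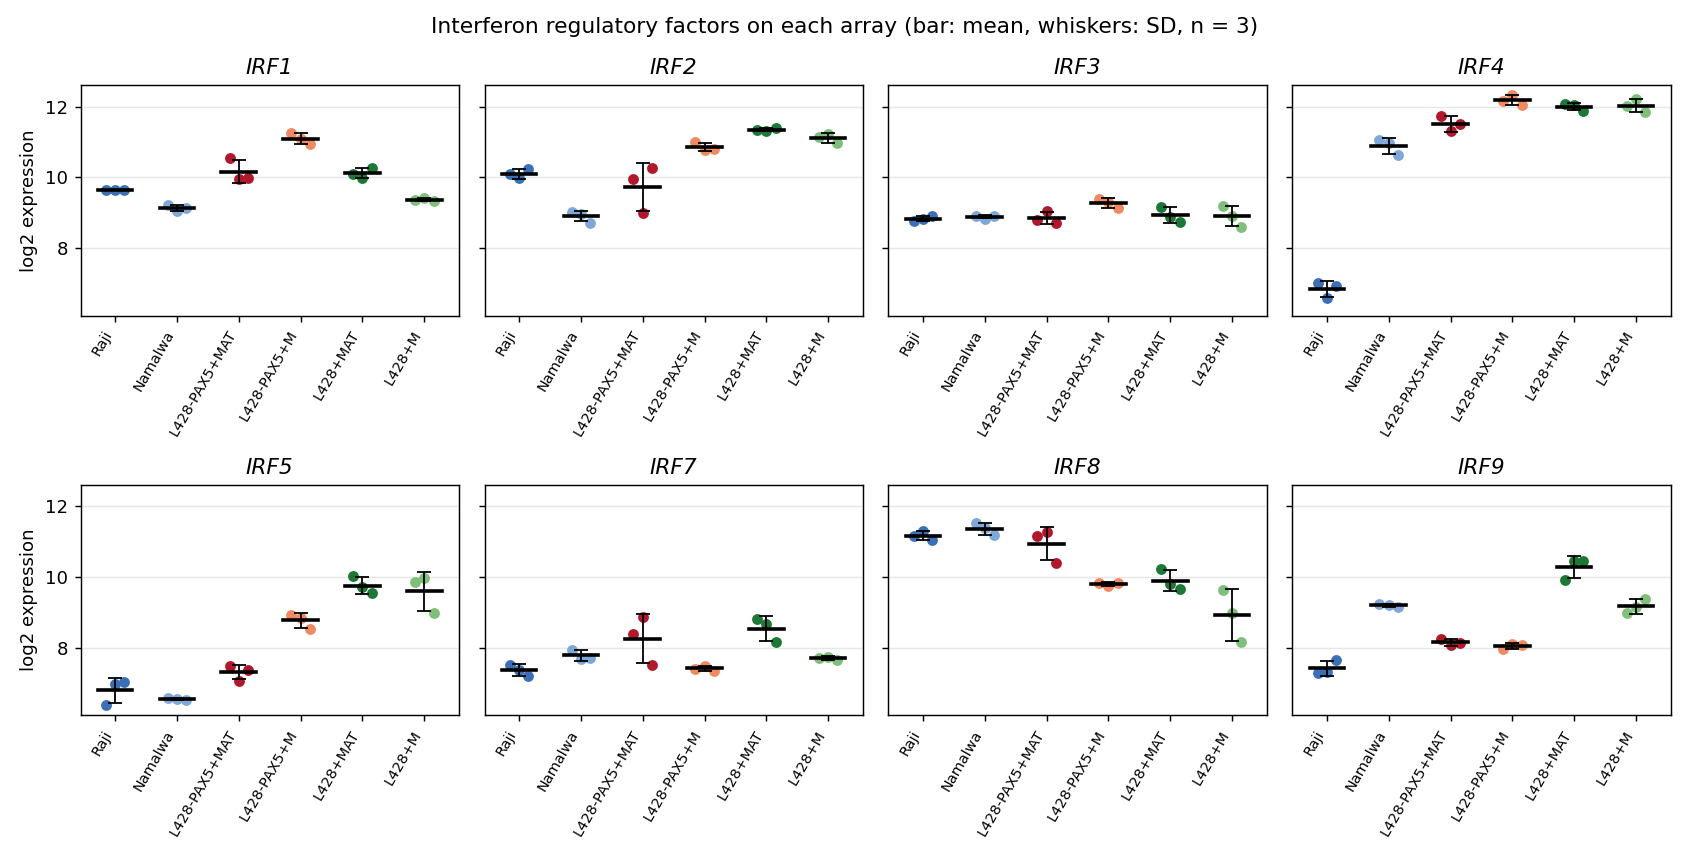
Log2 expression of the 8 IRF genes (vertical axes) on each array in the 6 groups (horizontal axes), with a bar at the mean and whiskers for the SD of 3 arrays. IRF4 is low only on the 3 Raji arrays, IRF5 steps down from both L428 groups through L428-PAX5+M to L428-PAX5+MAT and the Burkitt lines, and IRF9 peaks in L428+MAT.

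Counted by comparison, the members that passed were as follows. All tests are limma fits over the 6 groups with Benjamini-Hochberg adjustment over all 18417 genes, and a gene passed at an adjusted p below 0.05. With drugs in L428-PAX5, IRF7 and IRF8 rose and IRF1, IRF2, IRF3, IRF4 and IRF5 fell, 7 of 8 members where 33.7% of all genes passed (14.2% higher and 19.4% lower). In L428 the same drugs raised IRF1, IRF8 and IRF9, 3 of 8 members where 4.84% of all genes passed (4.21% higher and 0.635% lower). L428-PAX5+M against L428+M had IRF1 and IRF8 higher and IRF5 and IRF9 lower, 4 of 8 members against 16.3% of all genes (9.72% higher and 6.55% lower). Under drugs in both lines, L428-PAX5+MAT against L428+MAT had IRF8 higher and IRF2, IRF4, IRF5 and IRF9 lower, 5 of 8 members against 32% of all genes (14.3% higher and 17.7% lower). The drug change itself differed between the lines for IRF1, IRF2, IRF5 and IRF9, all with a lower change in L428-PAX5, 4 of 8 members against 16.2% of all genes (5.64% higher and 10.6% lower). Raji against L428+M had 5 of 8 members passing with 31.2% of all genes (15.7% higher and 15.6% lower), and Namalwa against L428+M 4 of 8 with 33.9% (18.4% higher and 15.5% lower). Raji against Namalwa had 4 of 8 with 19.2% (7.74% higher and 11.5% lower), and both Burkitt lines against L428-PAX5+MAT 4 of 8 with 49.5% (26.5% higher and 23.1% lower). With 8 members, each is a large share of such a count, and the values of the single genes carry the description.

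**Figure D2:**
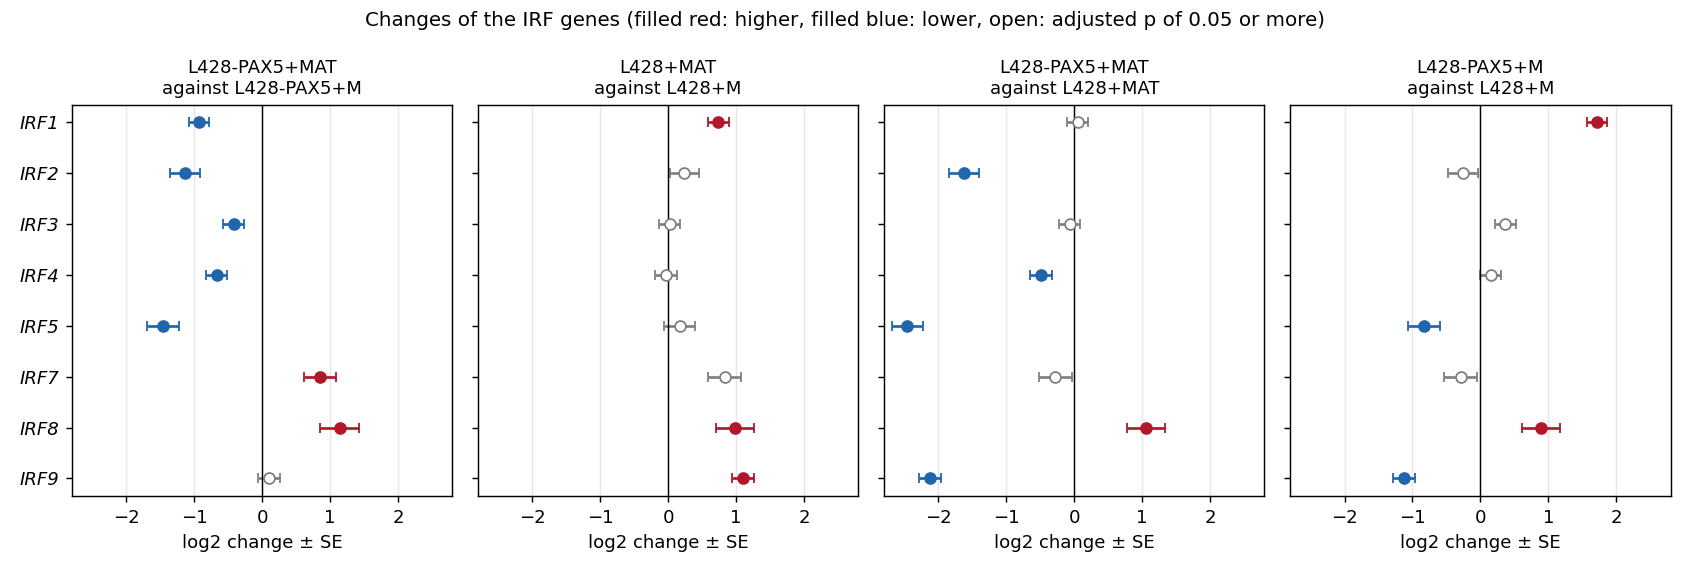
Log2 change ± SE (horizontal axes) of the 8 IRF genes (rows) in 4 comparisons of the L428-derived groups, with filled red points for genes that rose, filled blue for genes that fell and open points for those at an adjusted p of 0.05 or more. IRF1 fell with the drugs in L428-PAX5 and rose with them in L428, whereas IRF8 rose in both.

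IRF1, the interferon-gamma-inducible activator, was highest in L428-PAX5+M, and the drugs moved it in opposite directions in the 2 lines. It read 10.54, 9.95 and 9.99 in L428-PAX5+MAT and 11.26, 11.08 and 10.93 in L428-PAX5+M. In the unmodified line it read 10.10, 9.98 and 10.25 in L428+MAT and 9.36, 9.42 and 9.32 in L428+M. Neither pair of groups overlapped: with the drugs IRF1 fell in the PAX5 line and rose in the unmodified line. The log2 change was -0.93 ± 0.15 in L428-PAX5 (SE; limma adjusted p = 8.47e-05) and 0.74 ± 0.15 in L428 (adjusted p = 0.00378). The difference between the drug changes was -1.67 ± 0.21 (limma interaction, adjusted p = 5.48e-05). Without drugs IRF1 was 3.3-fold higher in the PAX5 line than in L428 (log2 change of L428-PAX5+M against L428+M 1.72 ± 0.15, adjusted p = 1.64e-07). With drugs in both lines the arrays overlapped and the difference was 0.05, with a 95% confidence interval from -0.26 to 0.36. Its level in the Burkitt lines was lower than in the drug-treated PAX5 line, at 9.64, 9.63 and 9.65 in Raji and 9.23, 9.06 and 9.13 in Namalwa (log2 change of the Burkitt lines against L428-PAX5+MAT -0.77 ± 0.13, adjusted p = 4.47e-05). Raji stood 0.50 ± 0.15 above Namalwa (adjusted p = 0.0206), a call that was lost, with adjusted p from 0.0533 to 0.082, when Raji replicate 1, 2 or 3 or Namalwa replicate 2 or 3 was left out.

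IRF2, which occupies the same DNA sites as IRF1 and mostly represses, fell with the drugs in L428-PAX5, and this change differed from that in L428. Its arrays read 9.95, 8.98 and 10.25 in L428-PAX5+MAT and 10.99, 10.78 and 10.81 in L428-PAX5+M, with no overlap but with a wide spread under drugs. In L428+MAT it read 11.34, 11.32 and 11.39, and in L428+M 11.15, 11.22 and 10.96. In the PAX5 line the log2 change was -1.13 ± 0.22 (limma adjusted p = 5.40e-04), or -0.76 without replicate 2 of L428-PAX5+MAT (adjusted p = 7.86e-04), and the change in L428 was 0.24 ± 0.22 (adjusted p = 0.686). Those changes differed by -1.37 ± 0.31 (limma interaction, adjusted p = 0.00548). Under drugs the PAX5 line stood 3.08-fold below L428 (log2 change -1.62 ± 0.22, adjusted p = 1.44e-05). Namalwa had the lowest levels, at 9.02, 8.95 and 8.72, and Raji read 10.10, 9.97 and 10.24, 2.3-fold higher than Namalwa (log2 change 1.20 ± 0.22, adjusted p = 4.00e-04). Both lay below L428+M, Raji by a log2 change of -1.01 (adjusted p = 0.00118) and Namalwa by -2.21 (adjusted p = 1.11e-07).

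Genes that IRF1 is known to activate in antigen presentation and in the interferon-gamma response did not follow IRF1 as a block. With drugs in L428-PAX5, where IRF1 fell, 9 of the 19 measured fell and 4 rose. The median log2 change was -0.49 against -0.04 over all genes, of which 19.4% were lower and 14.2% higher. Without L428-PAX5+MAT replicate 2 the counts were 6 lower and 6 higher, with a median of -0.30. In L428, where IRF1 rose, 11 of 19 rose and none fell, also at an unadjusted limma p below 0.05. The median was 0.77 against -0.04 over all genes, of which 4.21% were higher and 0.635% lower. CXCL11, a chemokine that draws T cells, rose in both lines. It read 9.53, 9.32 and 9.46 in L428-PAX5+MAT and 5.09, 4.88 and 5.35 in L428-PAX5+M (20.1-fold, adjusted p = 7.59e-10), and it read 8.99, 8.54 and 9.04 in L428+MAT and 5.53, 5.02 and 5.89 in L428+M (10.4-fold, adjusted p = 7.24e-08). GBP2, an interferon-induced GTPase, rose 11.9-fold with drugs in L428-PAX5 (adjusted p = 1.71e-07). The immunoproteasome subunits PSMB10 and PSMB8 fell there, by 1.50 ± 0.29 and 1.36 ± 0.24 on the log2 scale (adjusted p = 4.69e-04 and 2.18e-04). Without drugs, where IRF1 differed most between the lines, L428-PAX5+M had 4 of 19 higher than L428+M and 3 lower. Over all genes 9.72% were higher and 6.55% lower in that comparison. CD274 (the checkpoint ligand PD-L1) was 3-fold higher (adjusted p = 7.27e-05) and the chemokine CXCL10 3.03-fold lower (adjusted p = 8.69e-05).

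IRF9, the DNA-binding part of ISGF3, rose with the drugs in L428, and in L428-PAX5 no change passed. It read 9.91, 10.46 and 10.45 in L428+MAT and 8.97, 9.16 and 9.39 in L428+M, without overlap. In the PAX5 line the 3 arrays of L428-PAX5+MAT, at 8.25, 8.08 and 8.14, overlapped those of L428-PAX5+M, at 7.95, 8.11 and 8.09. The rise in L428 was 2.15-fold (log2 change 1.10 ± 0.16, limma adjusted p = 1.55e-04). The change in L428-PAX5 was 0.10, with a 95% confidence interval from -0.23 to 0.43 (adjusted p = 0.69), and the difference between the drug changes was -1.0 ± 0.22 (limma interaction, adjusted p = 0.00486). IRF9 was lower in the PAX5 line both without drugs, by 1.12 ± 0.16 (adjusted p = 4.96e-05), and with them, 4.35-fold (log2 change -2.12 ± 0.16, adjusted p = 1.75e-08). The Burkitt lines were unlike each other: Raji read 7.27, 7.32 and 7.66 and Namalwa 9.24, 9.21 and 9.15, a log2 change of -1.79 ± 0.16 in Raji against Namalwa (adjusted p = 4.77e-08). Namalwa lay at the level of L428+M, with a difference of 0.03 (95% confidence interval from -0.30 to 0.36).

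The 31 listed ISGF3 targets, antiviral genes that carry an ISRE, showed the contrast between the lines too. Of the 31, 24 rose and none fell with the drugs in L428 (0 fell at an unadjusted limma p below 0.05). The median log2 change was 1.12 against -0.04 over all genes, of which 4.21% were higher and 0.635% lower. In L428-PAX5 the drugs lowered 17 and raised 5, with a median of -0.74 against -0.04 over all genes. Of all genes 19.4% were lower and 14.2% higher there, so the count of raised targets is near that share. The drug change differed between the lines for 24 of 31, all in the direction of a smaller change or a fall in L428-PAX5. The median difference was -2.12 against 0.01 over all genes, of which 10.6% passed as lower and 5.64% as higher. By the sign of the estimates 23 of 31 were higher with drugs in L428 and lower with drugs in L428-PAX5, and 12 passed in both, which is 12 of the 24 that rose and 12 of the 17 that fell. MX1, a GTPase that blocks viral replication, had the largest rise of the list in L428, at 11.04, 11.07 and 10.72 in L428+MAT and 8.46, 8.50 and 8.11 in L428+M (6.03-fold, adjusted p = 1.61e-07). OAS2, which activates RNase L on viral RNA, read 6.62, 6.43 and 7.50 in L428-PAX5+MAT and 8.85, 8.62 and 8.72 in L428-PAX5+M, a log2 change of -1.88 ± 0.20 (adjusted p = 1.64e-06). OASL, an OAS relative that enhances RNA sensing, moved the other way there and rose 2.75-fold (adjusted p = 4.98e-06). Under drugs, 29 of 31 were lower in L428-PAX5+MAT than in L428+MAT and none higher (0 at an unadjusted limma p below 0.05). Of all genes 17.7% were lower and 14.3% higher in that comparison. IFI44L was 20.7-fold and MX1 14.8-fold lower (adjusted p = 3.45e-08 and 3.88e-10). Without drugs the PAX5 line had 6 of the list higher than in L428 and 3 lower, where 9.72% of all genes were higher and 6.55% lower. Leaving out L428+M replicate 2 left 3 higher, and leaving out L428-PAX5+M replicate 1 left 1 lower. The fit with the replicate number as a block gave 7 lower.

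**Figure D3:**
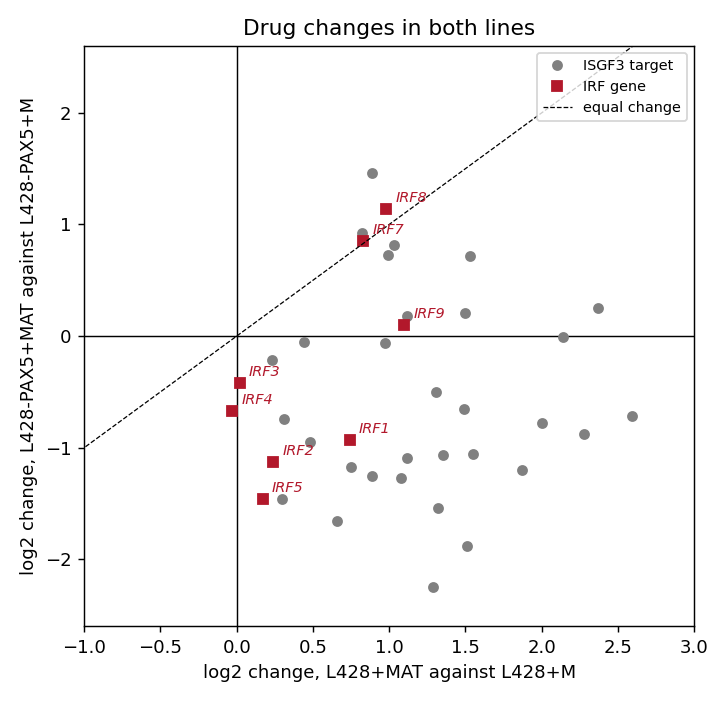
Log2 change with the drugs in L428-PAX5 (vertical axis) and in L428 (horizontal axis) for the 8 IRF genes (red squares) and the 31 ISGF3 targets (grey circles), with a dashed line of equal change. IRF7 and IRF8 lie by the line, IRF9 and most ISGF3 targets lie to its right, and IRF1, IRF2, IRF3, IRF5 and 23 targets have estimates above 0 in L428 and below 0 in L428-PAX5, whether or not they passed.

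Between the Burkitt lines, 15 of 31 ISGF3 targets were lower in Raji than in Namalwa, as was IRF9, and 3 were higher, while 13 did not pass (median -0.68 against 0.04 over all genes). Over all genes 11.5% were lower and 7.74% higher, so the count of higher targets is near that share. IFI44L, an interferon-induced gene, read 5.15, 5.04 and 5.95 in Raji and 11.31, 11.43 and 11.57 in Namalwa, 66.5-fold lower in Raji (adjusted p = 8.87e-11). SAMD9L, an antiviral and growth-restraining gene, was 41.4-fold lower (adjusted p = 3.15e-11). Against L428+M, 22 of 31 were lower and 3 higher in Raji, where 15.6% of all genes were lower and 15.7% higher. In Namalwa 14 were lower and 8 higher, where 15.5% of all genes were lower and 18.4% higher.

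IRF3, the constitutive sensor-activated member, was close to flat. Its values ran from 8.60 to 9.39 over all 18 arrays, and ordered by mean, each group's arrays overlapped those of the next. L428-PAX5+MAT read 8.80, 9.05 and 8.71 and L428-PAX5+M 9.39, 9.29 and 9.12, a log2 change of -0.42 ± 0.15 (limma adjusted p = 0.0446). That call was lost when L428-PAX5+MAT replicate 1 or 3 or L428-PAX5+M replicate 1 or 2 was left out (adjusted p from 0.105 to 0.155), and under quantile normalization (-0.19, adjusted p = 0.326). Against L428+M the change of L428-PAX5+M was 0.37 ± 0.15 (adjusted p = 0.125), and without L428+M replicate 1 it was 0.51 (adjusted p = 0.0402).

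IRF7, the interferon-amplifying member that is itself an ISGF3 target, rose with the drugs in L428-PAX5 and stood higher by a similar amount, short of the threshold, in L428. It read 8.40, 8.87 and 7.51 in L428-PAX5+MAT and 7.40, 7.49 and 7.35 in L428-PAX5+M. In L428+MAT it read 8.82, 8.66 and 8.15 and in L428+M 7.71, 7.75 and 7.66. Every drug-treated array lay above the mifepristone-only arrays of its line, the third L428-PAX5+MAT array by little. The log2 change was 0.85 ± 0.24 in L428-PAX5 (limma adjusted p = 0.0105), and 0.54 without L428-PAX5+MAT replicate 2 (adjusted p = 0.0828). In L428 it was 0.83 ± 0.24 and missed the threshold (adjusted p = 0.056), passing with the replicate number as a block (adjusted p = 0.00946) and without L428+MAT replicate 3 (1.03, adjusted p = 0.03). The difference between the drug changes was 0.02 with a 95% confidence interval from -0.70 to 0.73. Raji read 7.52, 7.38 and 7.19 and Namalwa 7.94, 7.69 and 7.70, together 0.69 ± 0.21 below L428-PAX5+MAT (adjusted p = 0.00967), and 0.39 below without L428-PAX5+MAT replicate 2 (log2 change -0.39, adjusted p = 0.123).

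IRF5, which Toll-like receptors activate through MYD88 and TASL, fell in steps that left the drug-treated PAX5 line close to the Burkitt lines. It read 7.48, 7.07 and 7.38 in L428-PAX5+MAT, 8.92, 8.85 and 8.54 in L428-PAX5+M, 10.04, 9.71 and 9.54 in L428+MAT, and 9.85, 9.98 and 8.97 in L428+M. Neither L428-PAX5 group overlapped any L428 array, and the L428-PAX5 groups did not overlap each other. With the drugs IRF5 fell 2.76-fold in L428-PAX5 (log2 change -1.46 ± 0.23, limma adjusted p = 7.72e-05), and its log2 change in L428 was 0.17 ± 0.23 (adjusted p = 0.818). The difference of these changes was -1.63 ± 0.32 (limma interaction, adjusted p = 0.00233). Under drugs IRF5 was 5.49-fold lower in the PAX5 line (log2 change -2.46 ± 0.23, adjusted p = 2.21e-07). Without drugs it was 0.83 ± 0.23 lower on the log2 scale (adjusted p = 0.017), a call that was lost without L428+M replicate 1 or 2 or L428-PAX5+M replicate 3, where the log2 change was -0.70, -0.63 and -0.71, with adjusted p from 0.0773 to 0.109. Raji read 6.38, 6.97 and 7.02 and Namalwa 6.57, 6.54 and 6.53, 7.02-fold and 8.29-fold below L428+M (adjusted p = 7.61e-09 and 2.32e-09). On 4 arrays IRF5 lay below 6.62, the median of all probe set values, and whether low signal limits these folds was not tested. The Burkitt lines together stood 0.64 ± 0.20 below L428-PAX5+MAT (log2 change -0.64, adjusted p = 0.0112), and -0.56 without L428-PAX5+MAT replicate 1 (adjusted p = 0.0609).

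Most of the listed machinery that activates IRF3, IRF5 and IRF7 fell with the drugs in the PAX5 line. Of 20 measured sensors, adaptors and kinases 14 fell and 1 rose. The median log2 change was -0.68 against -0.04 over all genes, of which 19.4% were lower and 14.2% higher. TRAF3, an adaptor that recruits the kinase TBK1, fell by 1.50 ± 0.23 (adjusted p = 7.00e-05), and the RNA sensor IFIH1 fell by 1.38 ± 0.23 (adjusted p = 1.27e-04). L428-PAX5+MAT replicate 2 was the lowest of its group for both: TRAF3 read 7.59, 6.92 and 8.22 and IFIH1 9.56, 8.47 and 9.80 there, against 8.98, 9.26 and 8.98 for TRAF3 and 10.69, 10.59 and 10.68 for IFIH1 in L428-PAX5+M. That array was the lowest of the 3 for 12 of the 20 sensors, 21 of the 31 ISGF3 targets, 13 of the 19 IRF1 targets and 5 of the 8 IRFs, against 36.3% of all genes. Without it TRAF3 fell by 1.17 and IFIH1 by 0.97 (adjusted p = 2.80e-04 and 6.56e-05), and 10 sensors and 15 ISGF3 targets fell. The gene that rose was RIGI, the sensor of uncapped viral RNA, at 9.14, 8.90 and 9.17 in L428-PAX5+MAT and 7.57, 7.13 and 7.75 in L428-PAX5+M (3.01-fold, adjusted p = 4.35e-06). RIGI rose with the drugs in L428 too, at 9.75, 9.33 and 9.66 in L428+MAT and 7.62, 7.62 and 7.91 in L428+M (3.63-fold, adjusted p = 3.20e-06). Under drugs 17 of 20 were lower in L428-PAX5+MAT than in L428+MAT and none higher, also unadjusted (median -0.86), with the IRF5 adaptor TASL 8.41-fold and MYD88 5.53-fold lower (adjusted p = 3.29e-08 and 6.89e-07). Of 9 receptors, kinases and STATs of interferon signalling, 4 were lower there, where 17.7% of all genes were lower. IFNGR2 was 3.62-fold and IFNAR1 3.1-fold lower (adjusted p = 1.58e-06 and 1.21e-06). Of the 12 interferon genes measured, 2 are described. IFNG, the interferon-gamma gene, passed with drugs in both lines, 1.05 ± 0.32 higher in L428-PAX5 (adjusted p = 0.0164) and 1.20 ± 0.32 higher in L428 (adjusted p = 0.0354), at low levels of 4.82 to 7.29 on these 12 arrays. The call in L428-PAX5 was lost without L428-PAX5+M replicate 2 or L428-PAX5+MAT replicate 3, and that in L428 without L428+MAT replicate 3, L428+M replicate 1 or L428+M replicate 2. IFNB1, the first type I interferon made after infection, stayed between 3.58 and 4.39 on all arrays.

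IRF4, the plasma cell and Hodgkin member, was high in every group except Raji. It read 7.01, 6.57 and 6.92 in Raji and 11.07, 10.97 and 10.64 in Namalwa, 16.6-fold lower in Raji (log2 change -4.05 ± 0.16, limma adjusted p = 6.69e-13). Against L428+M, at 12.03, 12.21 and 11.85, it was 36.7-fold lower in Raji (log2 change -5.20 ± 0.16, adjusted p = 7.99e-15) and 2.21-fold lower in Namalwa (log2 change -1.14 ± 0.16, adjusted p = 9.53e-06). The Raji values lie near 6.62, the median of all probe set values, with 1 array below it. No array of either Burkitt line overlapped the Hodgkin-derived groups. In the PAX5 line IRF4 read 11.74, 11.30 and 11.51 in L428-PAX5+MAT and 12.17, 12.32 and 12.05 in L428-PAX5+M, a log2 change of -0.67 ± 0.16 (adjusted p = 0.00307). In L428 the drugs left it at 12.08, 12.04 and 11.89, a change of -0.03 with a 95% confidence interval from -0.37 to 0.30. The difference between the drug changes was -0.63 ± 0.23 (limma interaction, adjusted p = 0.0633), and it passed with the replicate number as a block (adjusted p = 0.0263) and without L428-PAX5+MAT replicate 1 (-0.74, adjusted p = 0.0391). Under drugs the PAX5 line stood 0.49 ± 0.16 below L428 (log2 change -0.49, adjusted p = 0.0241), which was lost without L428+MAT replicate 1 or 2 or L428-PAX5+MAT replicate 2 (adjusted p from 0.0691 to 0.116) and under quantile normalization (-0.25, adjusted p = 0.232).

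IRF8, the germinal-centre member, ran the other way across the groups and was highest in the Burkitt lines and in the drug-treated PAX5 line. Raji read 11.17, 11.30 and 11.04, Namalwa 11.52, 11.38 and 11.18, and L428-PAX5+MAT 11.17, 11.28 and 10.40. L428-PAX5+M read 9.84, 9.75 and 9.83, L428+MAT 10.22, 9.81 and 9.67, and L428+M 9.62, 8.99 and 8.15. The L428+M arrays were the most spread, and each other group lay above all 3 of them. The drugs raised IRF8 2.21-fold in L428-PAX5 (log2 change 1.14 ± 0.28, limma adjusted p = 0.00327). The rise in L428 was 0.98 ± 0.28 (adjusted p = 0.0481), just inside the threshold. The difference between these changes was 0.17 with a 95% confidence interval from -0.65 to 0.98. Against L428+MAT, L428-PAX5+MAT stood 2.07-fold higher (log2 change 1.05 ± 0.28, adjusted p = 0.00613). The difference of the Burkitt lines from L428-PAX5+MAT was 0.32, with a 95% confidence interval from -0.19 to 0.82 (adjusted p = 0.292), and they stood 4.76-fold (Raji) and 5.43-fold (Namalwa) above L428+M (adjusted p = 2.16e-06 and 6.78e-07).

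The smaller IRF8 differences that involve L428+M depended on single arrays. L428-PAX5+M stood 0.89 ± 0.28 above L428+M (limma adjusted p = 0.0337), and that call ended when L428+M replicate 2, L428+M replicate 3 or a single L428-PAX5+M array was left out (adjusted p from 0.0715 to 0.203). Without L428+M replicate 3, the lowest array, the change was 0.50. The drug rise in L428 was likewise lost without L428+M replicate 2 or 3 or any L428+MAT array (adjusted p from 0.064 to 0.215), and it was 0.60 without L428+M replicate 3. Between L428-PAX5+M and L428+M, 2 of the 8 members in place of 4 passed without L428+M replicate 2 and without L428-PAX5+M replicate 3, in each case IRF1 and IRF9.

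Several partners with which IRF4 and IRF8 bind DNA fell with the drugs in the PAX5 line. Of 13 measured, 6 fell and none rose there, also unadjusted (median -0.30 against -0.04 over all genes). Among all genes 19.4% were lower and 14.2% higher there. IKZF1 (Ikaros), a lymphoid zinc-finger factor, read 9.17, 8.29 and 10.01 in L428-PAX5+MAT and 11.47, 11.53 and 11.58 in L428-PAX5+M, 5.17-fold lower (adjusted p = 2.88e-06). BATF, the AP-1 factor that binds composite sites with IRF4, read 6.55, 6.57 and 7.07 in L428-PAX5+MAT and 8.33, 8.42 and 8.75 in L428-PAX5+M, 3.41-fold lower (adjusted p = 1.59e-07). SPI1, the gene of PU.1, was 3.06-fold higher in Raji than in L428+M (adjusted p = 1.37e-06), while BATF3 was 14.2-fold and JUN 22-fold lower (adjusted p = 6.11e-12 and 6.12e-13).

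Of 18 genes reported as regulated by IRF4 or IRF8, 2 rose and 4 fell with the drugs in L428-PAX5. That is near the share over all genes, of which 14.2% were higher and 19.4% lower, and the list's median log2 change was -0.03 against -0.04. BCL6, the germinal-centre repressor, rose 3.72-fold (adjusted p = 1.27e-07), at 9.58, 10.11 and 9.61 in L428-PAX5+MAT and 8.20, 7.79 and 7.63 in L428-PAX5+M. Without drugs BCL6 was 3.98-fold lower in the PAX5 line than in L428 (adjusted p = 9.39e-08). XBP1, a plasma cell secretion factor, fell by 1.33 ± 0.18 (adjusted p = 1.58e-05). In Raji against Namalwa 3 of the 18 were higher, 4 lower and 11 did not pass, where 7.74% of all genes were higher and 11.5% lower. PRDM1 (Blimp-1), the plasma cell switch that IRF4 activates, was 2.11-fold lower in Raji than in Namalwa (adjusted p = 5.19e-05), at 7.26, 7.21 and 7.32 in Raji and 8.40, 8.43 and 8.19 in Namalwa. EBI3, the largest rise of the list there, was 4.49-fold higher in Raji (adjusted p = 1.01e-05). Of 13 corepressors and feedback inhibitors of IRFs and interferon signalling, 8 were lower and 1 higher in L428-PAX5+MAT than in L428+MAT. Over all genes 17.7% were lower and 14.3% higher there. TRIM21, a ubiquitin ligase that marks IRFs, was 3.06-fold lower (adjusted p = 1.23e-07). IRF2BP1, the IRF2 corepressor, was the gene that was higher, by 0.51 ± 0.13 (adjusted p = 0.00533).

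The lines themselves differ in many lineage genes beside the IRFs. In Raji against L428+M all 6 measured B-cell markers were higher and all 7 Hodgkin markers lower, with medians of 5.38 and -4.73, and in Namalwa likewise, with medians of 4.21 and -4.76. Among all genes 15.7% were higher and 15.6% lower in Raji, and 18.4% higher and 15.5% lower in Namalwa. The part of lineage in the IRF differences between Burkitt lines and L428+M was not tested. With the drugs in L428-PAX5, 5 of 7 Hodgkin markers fell, where 19.4% of all genes were lower (median -1.23 against -0.04 over all genes). IRF5 fell on the same arrays, and the part of the Hodgkin markers in its fall was not tested.

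The closest likeness to an IRF pattern was that of IRF5 with TNFRSF8, which encodes CD30, the surface antigen by which Hodgkin cells are recognised. Across the 18 arrays their log2 levels correlated at 0.99 (Pearson), the highest of 7425 other genes whose group means spanned at least 1. Over the 12 L428 and L428-PAX5 arrays the coefficient of this pair was 0.99. TNFRSF8 read 8.17, 7.93 and 7.84 in L428-PAX5+MAT, 9.25, 9.35 and 9.04 in L428-PAX5+M, 10.30, 10.06 and 9.70 in L428+MAT, and 10.22, 10.11 and 9.32 in L428+M. In L428+M replicate 3 was the lowest array for both genes. Arrays of 1 group share their line and treatment, so this is a description of 6 groups rather than of 18 independent points. TGM5 (0.981) and NFIC (0.975) came next for IRF5.

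**Figure D4:**
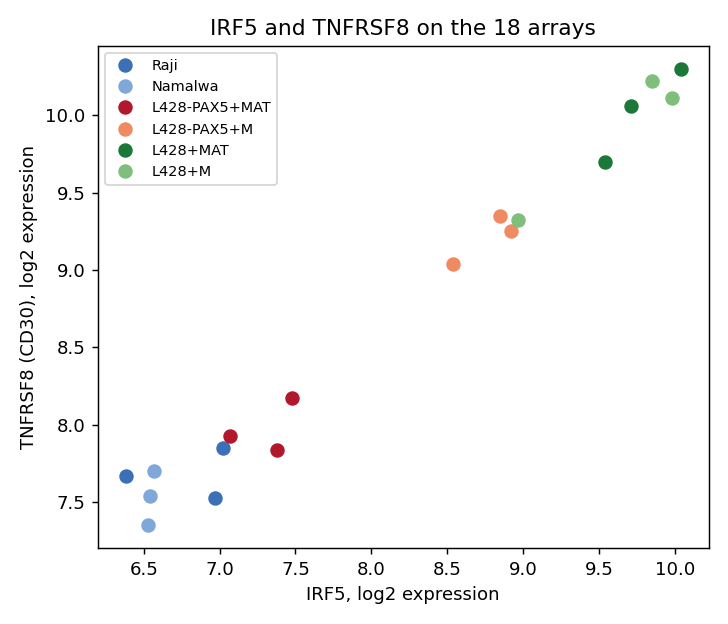
Log2 expression of TNFRSF8 (CD30, vertical axis) against that of IRF5 (horizontal axis) on the 18 arrays, coloured by group. The arrays lie along 1 rising band, with the Burkitt lines and L428-PAX5+MAT at its low end, L428-PAX5+M in the middle and L428+MAT and L428+M at its high end.

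The nearest patterns of the other members had lower or similar coefficients over the 18 arrays. IRF4 was most like EPB41L2 (0.988), SCARB2 (0.985) and HEBP2 (0.982). IRF8 was most like ZNF626 (0.972), PDCD11 and HIP1R (0.946 each), and IRF2 most like RAP1A (0.967), FAS (0.965) and FNBP1 (0.964). IRF9 was most like PECAM1 (0.956), RBMS3 (0.950) and the ISGF3 target IFI44 (0.939). IRF1 was most like FMNL3 (0.932), STK4 (0.915) and IL10RA (0.912), and IRF7 most like COX8C (0.922), DEPP1 (0.918) and BDKRB1 (0.898). Among the members themselves, IRF2 and IRF5 moved together (Pearson 0.90, Spearman 0.89), and IRF8 moved against both, with Pearson coefficients of -0.83 to IRF5 and -0.80 to IRF2. These coefficients over arrays of 6 groups are descriptions, and they carry the line and the treatment that the arrays share.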

How the data were processed

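Total RNA from 6 groups of 3 samples was labelled and hybridised to Affymetrix gene arrays. The deposited values are log2 intensities per probe set, made by the authors with RMA in Partek, per the submitters' processing notes. RMA subtracts background, sets the probe intensities of the arrays to a common distribution and summarises probes. A shift shared by most genes would thus be largely removed. The deposited values still differed in distribution between arrays, with medians from 6.52 to 6.7. The genome build was not given in the sources used here. Of 33297 probe sets, 19460 had 1 gene symbol, 1754 several and 12083 none listed, and 19429 were matched to current gene IDs with 0 symbols changed. The brightest probe set on average stood for a gene, which gave 18417 genes, and 769 of them had a choice. No filter was applied. Some genes of the lists are not reported here. The number of arrays limits the precision.

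Differences were fitted with limma 3.58.1 in R 4.3.3, with lmFit and eBayes without a trend on all 18 arrays and 1 mean per group (12 residual and 6.08 prior degrees of freedom), two-sided, with Benjamini-Hochberg adjustment over all 18417 genes and a threshold of 0.05. The fit was run on simulated data to see whether inserted changes were recovered. The simulated noise was independent between arrays with 1 spread per gene, unlike these data, so error rates here were not tested. Promoters and motifs were read with Python 3.11.15 from RefSeq windows. Named genes are all members and, of each list and comparison, the passing genes with the largest rise and fall (up to 2 each way), and further list genes only where the text gives a reason. The members, lists and tests were chosen with earlier results of these data known. For L428-PAX5+MAT the sample titles read L425-PAX5 while the cell line field reads L428-PAX5, and the field was followed.

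Same-numbered samples deviated together from their group means in 5 comparisons, with every correlation over 0.1: L428-PAX5+M against L428+M (0.48 to 0.57), L428+MAT against L428+M (0.49 to 0.65), L428-PAX5+MAT against L428-PAX5+M (0.31 to 0.42), L428-PAX5+MAT against L428+MAT (0.27 to 0.35) and Raji against Namalwa (0.33 to 0.54). The labels do not explain the numbers. Raji against L428+M (0.06 to 0.40) and Namalwa against L428+M (-0.01 to 0.50) did not meet that rule. Alternatives were the replicate number as a block, only the compared groups in the fit, an intensity trend, 2 scalings between arrays, a filter on dim genes, the mean of probe sets and each array left out in turn.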

Additional observations from a re-analysis of the deposited data

Results flagged for a closer look

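The drug change in L428-PAX5 minus the drug change in L428 was tested itself for every member, and it passed for 4 of 8 (limma interaction, Benjamini-Hochberg over all genes). IRF1 differed by -1.67 (95% confidence interval from -2.11 to -1.24), with a change of -0.93 in L428-PAX5 and 0.74 in L428. IRF5 differed by -1.63 (from -2.31 to -0.95), with changes of -1.46 in L428-PAX5 and 0.17 in L428. IRF2 differed by -1.37 (from -2.02 to -0.72), with changes of -1.13 in L428-PAX5 and 0.24 in L428. IRF9 differed by -1.0 (from -1.47 to -0.54), with changes of 0.10 in L428-PAX5 and 1.10 in L428. Over the arrays left out in turn these differences ran from -1.86 to -1.57 for IRF1, -1.82 to -1.31 for IRF5, -1.63 to -1.0 for IRF2 and -1.18 to -0.90 for IRF9. Over the other alternatives they ran from -1.67 to -1.39 for IRF1, -1.63 to -1.58 for IRF5, -1.37 to -1.12 for IRF2 and -1.0 to -0.85 for IRF9. With 3 samples in a group no search for single outlying samples was made.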

How the results depend on the processing

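Of 72 member results, 59 kept their call under every alternative, and none changed direction where it was called. Each member had 1 probe set, so the mean of probe sets could not change its values. The filter on dim genes could change its p-values but not its log2 changes. The count of members passing in L428-PAX5+M against L428+M was 2 in place of 4 with only the compared groups in the fit, and 2 to 4 with each array left out in turn. With only the compared groups in the fit, calls were also lost in L428+MAT against L428+M for IRF8 (adjusted p = 0.185), in L428-PAX5+MAT against L428-PAX5+M for IRF3 (0.0907) and IRF7 (0.0641), and in L428-PAX5+MAT against L428+MAT for IRF4 (0.0663). An intensity trend ended the call of IRF3 in L428-PAX5+MAT against L428-PAX5+M (adjusted p = 0.0526). IRF7 in L428+MAT against L428+M passed with only the compared groups (adjusted p = 0.0435) and with array medians subtracted (0.0469). Without L428-PAX5+MAT replicate 2, IRF2 passed in the Burkitt lines against L428-PAX5+MAT (-0.60, adjusted p = 8.07e-04), from -0.23 with all arrays. The replicate block changed no member's call beyond IRF7 in L428+MAT against L428+M and IRF4 in the interaction.

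Over all genes, 892 passed in L428+MAT against L428+M, 593 with only the compared groups and 1592 with the block, and 2990 in the interaction, 4730 with the block. The share of passing genes that were higher was 34.7% in the interaction and 48.7% after quantile normalization. In L428-PAX5+MAT against L428-PAX5+M it was 42.3%, and 50% after quantile normalization. There the alternatives other than leaving out single arrays gave -0.94 to -0.68 for IRF1 and -1.14 to -0.88 for IRF2. They gave -0.68 to -0.44 for IRF4, -1.47 to -1.42 for IRF5 and 1.13 to 1.41 for IRF8. List counts after quantile normalization are not reported here. With array medians subtracted the share of higher genes was 60.7% in place of 50.2% in Raji against L428+M. It was 53.4% in place of 40.2% in Raji against Namalwa. Medians differed by -0.12 and -0.10 in these comparisons. Leaving out arrays in turn, chosen for these lists after seeing the data, gave 19 to 22 ISGF3 targets higher and 8 to 10 IRF1 targets higher in L428+MAT against L428+M, and 15 to 17 ISGF3 targets and 10 to 13 sensors lower in L428-PAX5+MAT against L428-PAX5+M. The filter on dim genes left 12572 genes. Causes were not tested, and small changes are limited by 3 arrays in a group.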
